A study of Mus musculus with 7 samples.

Results

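Ensheathing glia genes were measured in sorted olfactory cells of young mice. The members are 7 listed genes, Fabp7, Sox10, S100b, Frzb, Npy, Apoe and Mbp, matched by name among the 54532 genes of the deposited tables, and all 7 had a row and passed the filter on low counts. The study sorted green fluorescent cells from the olfactory epithelium by flow cytometry and sequenced their polyadenylated RNA. OMP-GFP animals gave the mature olfactory sensory neurons, sorted on postnatal days 2, 7 and 16 (P2, P7 and P16; 3 libraries). Neurog1-GFP animals gave the intermediate progenitor cells, sorted at P3, P7, P9 and P16 (4 libraries). The design text says that purified cells were pooled, and names no other allele or agent. With 1 library for each age and population, the ages stand in for replicates, so the p-values reflect a spread that includes age. Population and reporter line coincide and cannot be told apart.

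Ensheathing glia are neural crest derived cells that wrap bundles of olfactory axons from beneath the epithelium to the outer layer of the olfactory bulb. They depend on the transcription factor Sox10, carry the fatty acid binding protein Fabp7 and the calcium-binding protein S100b, and, unlike Schwann cells and oligodendrocytes, do not normally myelinate the axons they surround. Neither reporter is meant to mark them, and the labels name no glia. In sorted pools like these, fewer cells of a type and less RNA per cell cannot be told apart.

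Counts assigned to genes numbered 24203965 to 25930727 per library. Neurog1, the proneural factor that names the progenitor line, stood at 0.84 to 1.85 TPM (a measure scaled for transcript length and library total) in mature neurons and at 292 to 698 TPM in progenitors. Omp, which names the mature line, was at 1066 to 1630 TPM in mature neurons and at 1323 to 2371 TPM in progenitors, so it did not separate the labels. In the P16 mature neuron library the 16 leukocyte genes listed for comparison summed to 184 TPM, against 17.6 to 62.0 TPM in the other libraries. The members' folds and the list counts that this library changes are therefore given with and without it.

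The panel did not move as 1 block between the populations. Fabp7, Npy, S100b and Sox10 were higher in mature neurons, Mbp was lower, and Apoe and Frzb did not pass the test (edgeR quasi-likelihood, adjusted over all genes tested). With age as a block, which only the P7 and P16 libraries allow, Frzb (edgeR adjusted p = 0.00942) and Apoe (0.0296) were called higher and Sox10 was not called (0.114). With log2 postnatal day as a covariate over all libraries, Frzb (edgeR adjusted p = 0.0178) and Apoe (0.00984) were also called higher. The count of 4 of 7 called higher stood beside 28.8% of all 17975 tested genes, and the count of 1 of 7 called lower beside 30.0%. In CPM the populations did not overlap for Fabp7, Sox10 and S100b, which were higher in mature neurons (3 of 7, background 29.2%), and for Mbp, which was lower (1 of 7, background 32.2%). The median log2 fold of the 7 genes was 1.38, against 0.01 over all tested genes, and it was 0.68 without the P16 mature neuron library. Without the P16 mature neuron library only Fabp7 was called higher and Mbp lower, while without the P2 mature neuron library 6 of 7 were called higher. Leaving out the P3, P7, P9 or P16 progenitor library left 2 called higher in each case, and leaving out the P7 mature neuron library left 3.

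**Figure D1:**
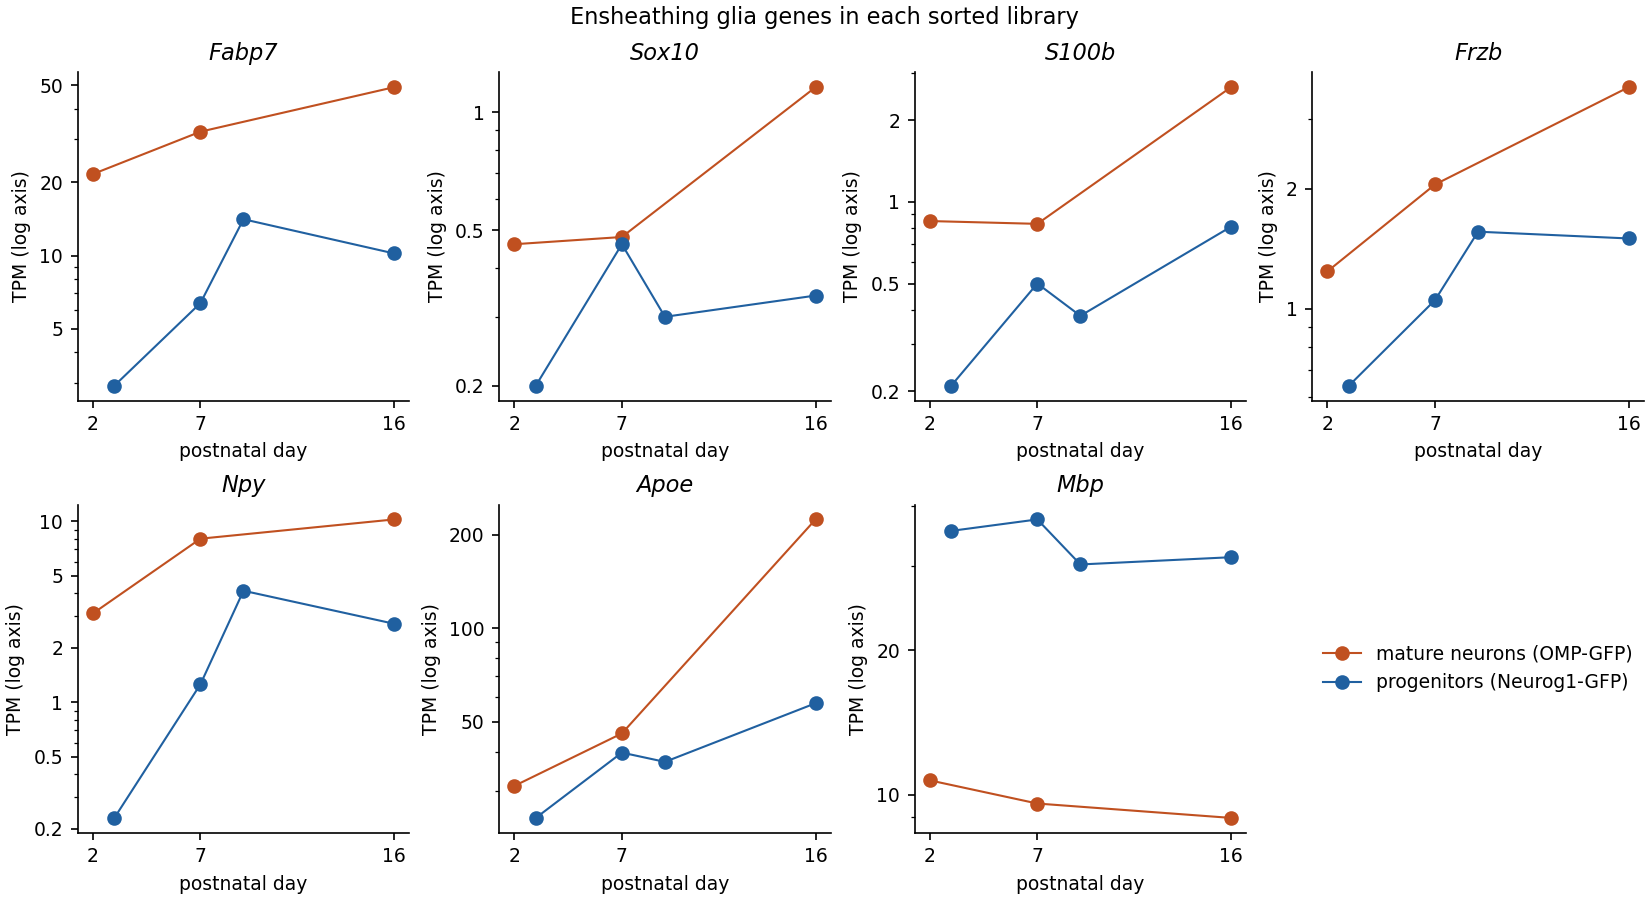
TPM (log axis, each gene on its own range) against postnatal day for the 7 genes, with 1 point per library and lines joining the ages of a population. The mature neuron points of Fabp7 lie above every progenitor point, from 21.6 to 49.2 TPM against 2.92 to 14.1 TPM, and the order is the opposite for Mbp.

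Fabp7, the brain lipid-binding protein of radial and ensheathing glia, maps to the plus strand of chromosome 10 (57784881 to 57788450, GRCm38). Its level was 21.6, 32.3 and 49.2 TPM in the P2, P7 and P16 mature neurons. In progenitors it was 2.92, 6.38, 14.1 and 10.2 TPM at P3, P7, P9 and P16. Every mature neuron library was thus above every progenitor library, and the lowest value of all was that of the P3 progenitors. In CPM (counts scaled to library size) the means were 17.1 ± 7.58 (SD, n = 3) and 3.77 ± 2.18 (SD, n = 4), with 2.18 as log2 fold (SE 0.49, edgeR adjusted p = 0.00519). Fabp7 was the 1 member called higher under all 14 alternatives, with log2 folds from 1.78 to 2.54.

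At matched ages the ratio of mature neurons to progenitors for Fabp7 was 5.60 at P7 (95% interval 4.33 to 7.33) and 5.44 at P16 (4.47 to 6.65). These intervals come from an exact binomial interval of the 2 counts and cover counting error only, since there is 1 library on each side. The level itself was 15.4 CPM at P7 and 25.3 CPM at P16 in mature neurons, and 2.76 and 4.66 CPM in progenitors.

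Npy, the secreted neuropeptide Y that developing ensheathing glia also make, maps to the plus strand of chromosome 6 (49822710 to 49829507). Mature neurons held 3.10, 8.03 and 10.3 TPM at P2, P7 and P16. Progenitors held 0.23, 1.26, 4.14 and 2.72 TPM at P3, P7, P9 and P16. The populations overlapped, because the P9 progenitors were above the P2 mature neurons. The log2 fold was 1.98 (SE 0.70, edgeR adjusted p = 0.0380) on 2 to 37 counts in progenitors and 29 to 89 counts in mature neurons. The call was lost without the P7 mature neuron library (edgeR adjusted p = 0.0902), the P16 mature neuron library (0.0855), the P7 progenitor library (0.0942) or the P16 progenitor library (0.0584).

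From the lowest to the highest library, Npy and Fabp7 followed almost the same order. Both ran from the P3 progenitors through the P7 and P16 progenitors, and both ended with the P7 and the P16 mature neurons. They differed only in the middle, where the P9 progenitors stood below the P2 mature neurons for Fabp7 and above them for Npy. After subtraction of each population's mean, log2(CPM + 1) of the pair had a Pearson r of 0.96 over the 7 libraries, which share library, depth and age effects. At matched ages Npy was 8.28 times as high in mature neurons at P7 (95% interval 4.11 to 18.9) and 4.41 times at P16 (2.76 to 7.30).

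S100b, a calcium-binding protein of Schwann cells, astrocytes and ensheathing glia, maps to the plus strand of chromosome 10 (76253853 to 76261159). It was at 0.85, 0.83 and 2.65 TPM in the P2, P7 and P16 mature neurons. It was at 0.21, 0.50, 0.38 and 0.81 TPM in progenitors at P3, P7, P9 and P16. The groups did not overlap, but the P7 mature neurons and the P16 progenitors were separated by only 0.83 against 0.81 TPM. On 18 to 61 counts in mature neurons and 5 to 19 in progenitors the log2 fold was 1.75 (SE 0.56, edgeR adjusted p = 0.0259). It was 0.95 without the P16 mature neuron library (edgeR adjusted p = 0.109), and the call did not hold with the P3 (0.0610), P7 (0.0571) or P9 progenitors (0.0649) left out.

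Sox10, the HMG-box transcription factor that directs neural crest glia, maps to the minus strand of chromosome 15 (79154908 to 79165240) and was the lowest member per length in every library. Mature neurons held 0.46, 0.48 and 1.16 TPM at P2, P7 and P16. Progenitors held 0.20, 0.46, 0.30 and 0.34 TPM at P3, P7, P9 and P16. The P2 mature neurons and the P7 progenitors tied on this scale, whereas in CPM the groups did not overlap. The log2 fold was 1.28 (SE 0.43, edgeR adjusted p = 0.0313) on 9 to 51 counts per library. It was 0.68 without the P16 mature neuron library (edgeR adjusted p = 0.131), and the call was lost too without the P3 (0.0743), P9 (0.0723) or P16 progenitor library (0.0583).

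At P7 alone, Sox10 and S100b did not differ detectably between the populations. The ratio of mature neurons to progenitors was 1.15 for Sox10 (95% interval 0.58 to 2.28) and 1.79 for S100b (0.80 to 4.20). At P16 it was 3.87 for Sox10 (2.14 to 7.41) and 3.66 for S100b (2.15 to 6.48). Fabp7 and Npy therefore had intervals above 1 at both ages, and Sox10 and S100b at P16 only. These intervals cover counting error only, and whether the ratio itself depends on age was asked of the slopes below.

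Frzb, a secreted Frizzled-related protein that binds Wnt ligands outside the cell, maps to the minus strand of chromosome 2 (80411970 to 80447625). Mature neurons held 1.24, 2.05 and 3.60 TPM at P2, P7 and P16. Progenitors held 0.64, 1.05, 1.56 and 1.5 TPM at P3, P7, P9 and P16. In TPM the P2 mature neurons lay within the progenitor range, whereas in CPM they were the lowest of the 7 libraries (1.14, against 1.37 to 2.37 in progenitors). The log2 fold of 0.97 (SE 0.50) had an edgeR adjusted p = 0.130. It was 1.40 without the P2 mature neuron library (edgeR adjusted p = 0.0127) and 0.27 without the P16 mature neuron library (0.610). At matched ages the ratio was 2.31 at P7 (95% interval 1.54 to 3.51) and 2.89 at P16 (2.13 to 3.98).

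Apoe, the lipid carrier apolipoprotein E that glia and macrophages secrete, maps to the minus strand of chromosome 7 (19696109 to 19699188). It was at 31.0, 45.8 and 224 TPM in the P2, P7 and P16 mature neurons. It was at 24.5, 39.7, 37.1 and 57.3 TPM in progenitors at P3, P7, P9 and P16. A single library, the P16 mature neurons, stood far above the other 6, among which the populations were interleaved. The log2 fold was 1.38 (SE 0.62, edgeR adjusted p = 0.0850) with all libraries. Without the P16 mature neuron library it was -0.00496 (edgeR adjusted p = 0.989), and without the P2 mature neuron library 1.81 (0.0250).

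At matched ages Apoe was 1.24 times as high in mature neurons at P7 (95% interval 1.11 to 1.39) and 4.12 times at P16 (3.82 to 4.43). The 16 leukocyte genes summed to 62.0, 44.5 and 184 TPM in the P2, P7 and P16 mature neurons. In the P3, P7, P9 and P16 progenitors they summed to 17.6, 23.5, 20.5 and 45.5 TPM. Of the 14 tested leukocyte genes 12 were called higher in mature neurons and 0 lower, against 28.8% and 30.0% of all tested genes. Without the P16 mature neuron library 6 of these 12 were called higher. All 14 had their highest CPM in that library, against 23.6% of all tested genes. Ptprc, the pan-leukocyte phosphatase, was at 17 to 106 counts in mature neurons and 3 to 37 in progenitors, and Csf1r, the macrophage growth factor receptor, at 116 to 275 and 29 to 88, so neither was at 0 in any library. The part of leukocyte RNA in the Apoe values was not tested.

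**Figure D2:**
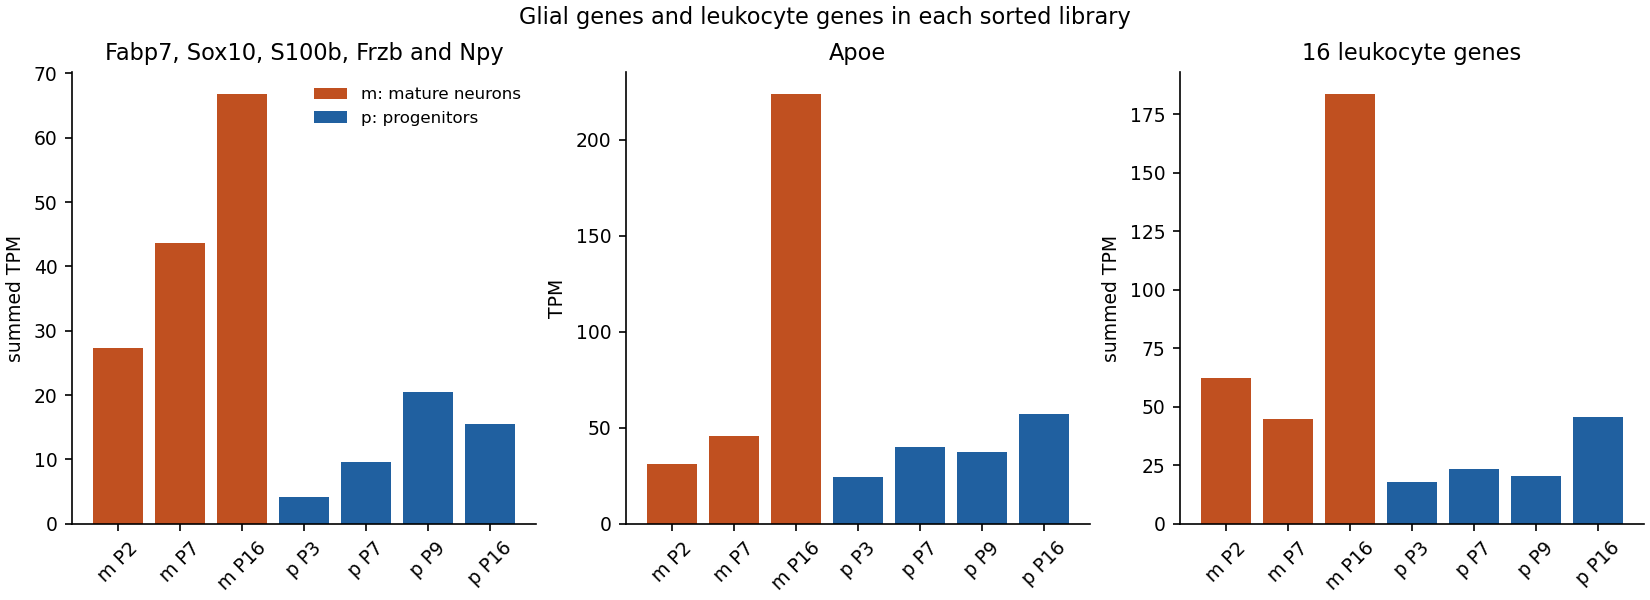
Bars give, for each library (m, mature neurons; p, progenitors; number, postnatal day), the summed TPM of Fabp7, Sox10, S100b, Frzb and Npy, the TPM of Apoe and the summed TPM of 16 leukocyte genes. The P16 mature neurons are highest in all 3 panels, at 66.9, 224 and 184 TPM, and the step from P7 to P16 is smaller in the first panel than in the other two.

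Mbp, myelin basic protein, maps to the plus strand of chromosome 18 (82475146 to 82585637) and went the other way. Its locus also makes golli transcripts, which are known outside myelinating cells, and the gene-level values do not separate them from the myelin transcripts. Mature neurons held 10.7, 9.59 and 8.95 TPM at P2, P7 and P16. Progenitors held 35.5, 37.5, 30.2 and 31.3 TPM at P3, P7, P9 and P16. The groups lay far apart, with means of 26.1 ± 1.79 CPM (SD, n = 3) and 87.8 ± 8.24 CPM (SD, n = 4) with -1.75 as log2 fold (SE 0.09, edgeR adjusted p = 7.62e-06). The ratio of mature neurons to progenitors was 0.277 at P7 and 0.303 at P16, and under all 14 alternatives the log2 fold stayed between -1.80 and -1.69.

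**Figure D3:**
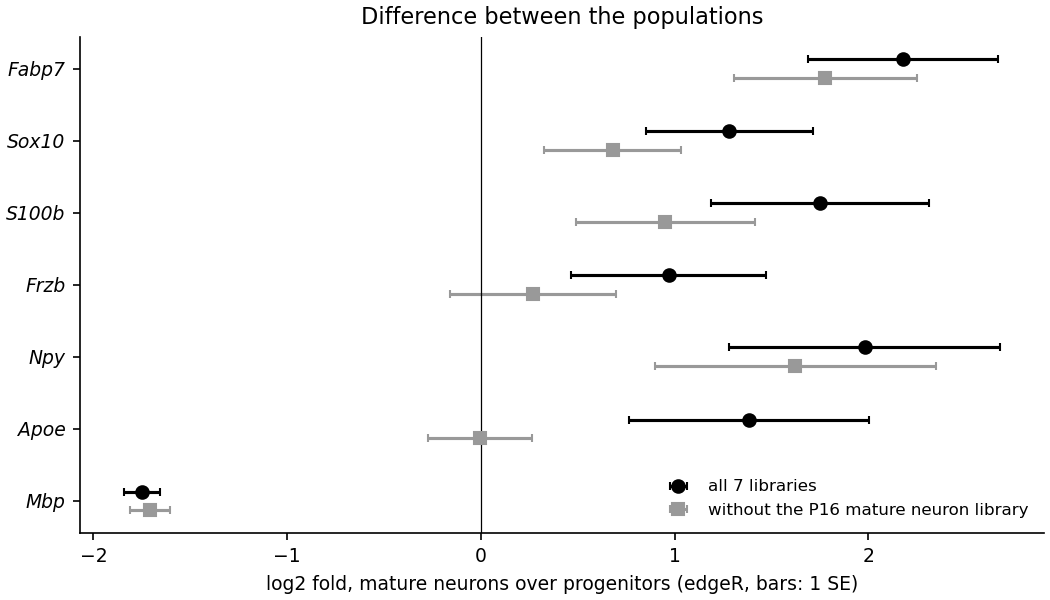
Log2 fold of mature neurons over progenitors for each gene (edgeR; bars, 1 SE), with all 7 libraries (circles) and without the P16 mature neuron library (squares). The squares of Fabp7 (1.78) and Mbp (-1.71) stay clear of 0, that of Apoe lies at -0.00496, and those of Sox10, S100b, Frzb and Npy lie below their circles.

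Per length, Apoe led the panel in mature neurons and Sox10 closed it. In each of these libraries the order was Apoe, Fabp7, then Mbp and Npy, then Frzb, S100b and Sox10. Mbp was above Npy at P2 and P7 and below it at P16. Over the 3 libraries the ranges of neighbours in this order overlapped, apart from the exceptions given next. The lowest Apoe value (31.0 TPM), for example, was below the highest Fabp7 value (49.2 TPM). As exceptions, Fabp7 (21.6 TPM and above) lay clear of Mbp (10.7 TPM and below) and Npy (10.3 TPM and below). Mbp (8.95 TPM and above) also lay clear of Frzb (3.6 TPM and below). In progenitors Mbp and Apoe shared the top, with overlapping ranges, and Fabp7 lay below both in every library without overlap, ahead of the other 4 members.

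The make-up of the panel differed between the populations accordingly. Mbp gave 30.0% to 55.3% of the summed TPM of the 7 genes in progenitors and 2.99% to 15.5% in mature neurons. Fabp7 gave 4.55% to 16.1% in progenitors and 16.4% to 32.6% in mature neurons. The sum itself was 69.0, 99.1 and 300 TPM in the P2, P7 and P16 mature neurons and 64.2 to 104 TPM in progenitors, so at P2 and P7 the totals hid opposite differences in single genes. In the P16 mature neurons Apoe alone made up 74.7%.

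**Figure D4:**
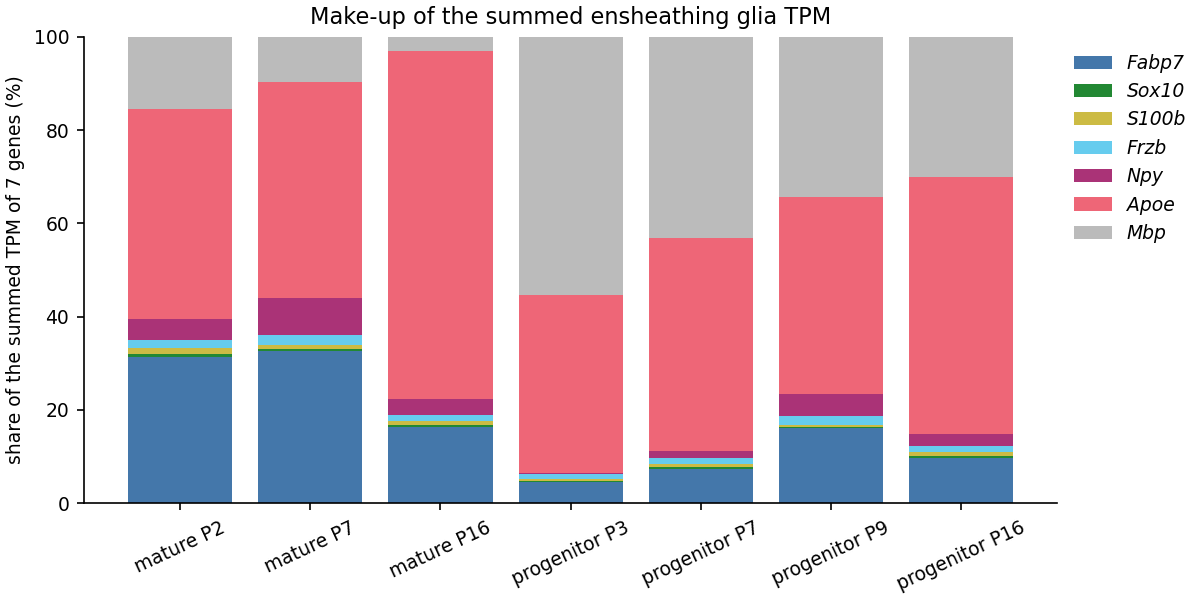
Stacked bars give each gene's share (percent) of the summed TPM of the 7 genes in each library. Mbp takes 30.0% to 55.3% in progenitors and at most 15.5% in mature neurons, and Apoe takes 74.7% in the P16 mature neurons against 38.1% to 55.0% elsewhere.

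Age was fitted beside population as 1 slope for all libraries, given as the log2 change for each doubling of postnatal day. No gene of the 17975 tested was called at an adjusted p of 0.05 (0 of 7 members), while 3746 had an unadjusted p under 0.05. All 7 members were among these, 6 with a positive slope, against a background of 9.64% of tested genes with a positive and 11.2% with a negative slope at that level. The largest was that of Apoe at 0.74 (SE 0.15, edgeR adjusted p = 0.0648), followed by Npy at 0.72 (SE 0.25, 0.154) and Frzb at 0.63 (SE 0.13, 0.0699). S100b had a slope of 0.60 (edgeR adjusted p = 0.111), Fabp7 of 0.54 (0.103) and Sox10 of 0.39 (0.215), and Mbp had -0.09 (0.161). Without the P16 mature neuron library the slope was 0.38 for Apoe (edgeR adjusted p = 0.212), 0.38 for S100b (0.577) and 0.15 for Sox10 (0.815), and that of Npy was the largest at 0.94 (0.348). Without the P2 mature neuron library it was 0.98 for S100b (edgeR adjusted p = 0.179). With postnatal day on a linear scale 438 genes were called with a positive and 686 with a negative slope, Apoe (edgeR adjusted p = 0.0188) and S100b (0.0344) among them. Without the P7 mature neuron library 367 and 619 genes were called, Apoe (0.0147) and Frzb (0.0488) among them.

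For most members the P16 mature neurons were high and the P3 progenitors low. Mbp was the reverse, highest in the P3 progenitors (97.1 CPM) and lowest in the P16 mature neurons (24.6 CPM). The P16 mature neurons were the highest of the 7 libraries in CPM for 6 of 7 members, against 23.6% of all tested genes. They exceeded both other mature neuron libraries at least 1.5 times for 5 of 7, against 6.50%, with Npy at 1.32 times the P7 value and Mbp below it. The P3 progenitors were the lowest of the 4 progenitor libraries for 6 of 7 members, against 30.5%. Marker sums of other cell types differed between ages in both directions. The 12 fibroblast and endothelial genes summed to 80.9, 78.3 and 156 TPM in the P2, P7 and P16 mature neurons and to 62.3, 78.7, 73.8 and 96.7 TPM in the P3, P7, P9 and P16 progenitors. Of these 12 genes 10 were tested, and 3 were called higher and 1 lower in mature neurons, against 28.8% and 30.0% of all tested genes. Without the P16 mature neuron library 2 were called higher and 2 lower. Gland and supporting cell genes had their lowest sum in each population at P16. The part of these cell types in the glial values was not tested.

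The difference of slopes between the populations was not called for any gene (0 of 17975 by edgeR, with 1075 at an unadjusted p under 0.05). At that level stood 0 of 7 members, against a background of 3.13% of genes with a positive and 2.85% with a negative difference. Among the members it ran from -0.72 for Npy (SE 0.57) to 0.50 for Frzb (SE 0.22), with edgeR adjusted p from 0.806 to 0.943. The slopes are taken over all ages, and for S100b their difference was -0.22 although its ratio was larger at P16 than at P7. The larger ratio of Apoe, Sox10 and S100b at P16 than at P7 was itself not tested. It is not shown to exceed the spread between libraries.

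Other genes of ensheathing glia and the Schwann lineage were taken from a list of 20, of which 15 were tested. Of these, 6 were higher in mature neurons and 3 were lower, with a median log2 fold of 0.56. Over all tested genes 28.8% were called higher and 30.0% lower, the shares to set beside this list and those below. Serpine2, a secreted protease inhibitor, had a log2 fold of 1.61 (SE 0.15), Ptprz1, a receptor phosphatase of glia, one of 1.17 (SE 0.29), and Ednrb, the endothelin receptor of neural crest cells, one of 2.07 (SE 0.56). Vim, an intermediate filament protein, had one of -2.68 (SE 0.18), Cnp, an enzyme of myelinating glia, one of -1.17 (SE 0.16) and Gpm6b, a membrane glycoprotein of neurons and glia, one of -0.38 (SE 0.06). Without the P16 mature neuron library 5 were called higher and 3 lower. The named genes stood at very different levels. In mature neurons Serpine2 was at 1070 to 1381 TPM, Vim at 81.4 to 141 TPM and Gpm6b at 42.95 to 50.25 TPM. Cnp was at 4.7 to 6.24 TPM there, Ptprz1 at 2.23 to 5.06 TPM and Ednrb at 0.69 to 0.92 TPM, beside 0.46 to 1.16 TPM for Sox10. In progenitors Serpine2 was at 374 to 465 TPM and Vim at 697 to 898 TPM. The part of glia in these values was not tested.

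Ngfr and Foxd3, also in this list, stood at low counts. Ngfr, the low-affinity neurotrophin receptor, had 4 to 8 counts in mature neurons and 8 to 23 in progenitors (log2 fold -1.03, SE 0.47, edgeR adjusted p = 0.0909). The 5 list members that failed the filter were Foxd3, Cdh19, Gfap, Mia and Gfra3, named after their values were seen. Foxd3, a neural crest transcription factor, had 5, 10 and 43 counts in the P2, P7 and P16 mature neurons and 2 to 5 counts in progenitors.

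The myelin and oligodendrocyte list, which shares genes with the list above, Pmp22 and Cnp among them, had 11 of 15 genes tested, 2 higher and 5 lower in mature neurons (median log2 fold -0.27). Pmp22, a myelin membrane protein, had a log2 fold of 1.55 (SE 0.46), and Mobp, a myelin-associated protein, one of -2.62 (SE 0.31). Olig2, a transcription factor of the oligodendrocyte lineage, was at 63.2 TPM in mature neurons and 167 TPM in progenitors on average (log2 fold -1.28, SE 0.14). The other defining oligodendrocyte markers were close to 0, with Mog at 0 or 1 count and Mag at 0 to 4 counts in each library. Mbp itself had 2163 to 2620 counts in each progenitor library. Without the P16 mature neuron library 1 gene of this list was called higher and 5 lower.

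In the lists set beside Fabp7 and Frzb, the called genes were few and were lower in mature neurons. The numbers are small, and of all tested genes 28.8% were called higher and 30.0% lower. Among 12 fatty acid and retinoid binding proteins of the Fabp7 family, 4 were tested, 0 were higher and 2 lower in mature neurons. These were Fabp5, at 26.7 TPM in mature neurons and 175 TPM in progenitors (log2 fold -2.62, SE 0.22), and Crabp1, a retinoic acid binding protein, at 41.5 and 1032 TPM (-4.52, SE 0.24). The 8 untested ones had at most 14 counts in any library. Of 10 further Wnt antagonists listed beside Frzb, 7 were tested, 0 were higher and 1 lower in mature neurons. That gene was Dkk1, at 0 or 1 count in mature neurons and 14 to 24 counts in progenitors (edgeR adjusted p = 0.000233). Without the P16 mature neuron library 3 of the 10 were called lower, and 1 of these had not been tested with all libraries.

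The S100 list, with the receptor Ager, had 14 of 16 genes tested, 5 higher and 2 lower in mature neurons (8 and 2 without the P16 mature neuron library). S100a5, an olfactory neuron calcium-binding protein, averaged 8162 TPM in mature neurons and 828 TPM in progenitors (log2 fold 3.42, SE 0.39), against 1.44 and 0.475 TPM for S100b. S100a3 had a log2 fold of 2.25 (SE 0.33), S100a13 of 1.65 (SE 0.25), S100a10 of -1.49 (SE 0.29) and S100g of -3.27 (SE 0.84).

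For the partners of Npy, 6 of 11 receptor and processing genes were tested, with 2 higher and 1 lower in mature neurons (3 and 1 without the P16 mature neuron library). Pcsk2, a prohormone convertase, had a log2 fold of 2.45 (SE 0.32) and Cpe, carboxypeptidase E, one of 0.58 (SE 0.08). Npy1r, a receptor of neuropeptide Y, was lower in mature neurons at 3 to 10 counts, against 28 to 55 in progenitors (log2 fold -2.40, SE 0.41). For those of Apoe, 11 of 12 receptor and lipid export genes were tested, with 2 higher and 0 lower. They were Sorl1, a sorting receptor that binds apolipoprotein E, at 0.57 (SE 0.14), and Apod, another lipid carrier made by glia, at 1.02 (SE 0.38). Without the P16 mature neuron library 1 was called higher and 2 lower.

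Regulators related to Sox10 were not called in either direction (0 of 5 tested among 10 neural crest and Sox genes by edgeR). At an unadjusted p under 0.05 stood 0 of these 5, against 11410 of all 17975 tested genes. With the P16 mature neuron library left out 1 was called higher, Egr2, a regulator of Schwann cell myelination named after its values were seen (log2 fold 1.25, edgeR adjusted p = 0.014, against 0.82 and 0.207 with all libraries). Egr2 was at 38.1, 29.5 and 7.61 CPM in the P2, P7 and P16 mature neurons, where Sox10 was at 0.84, 0.85 and 2.18 CPM. In progenitors Egr2 was at 6.39 to 19.4 CPM, lowest at P16. Sox9, which supporting and gland cells of the epithelium carry, had a log2 fold of -0.31 (edgeR adjusted p = 0.215) and Sox8 one of 0.49 (0.320). Sox10 is also known in Bowman gland cells, and in mature neurons 5 of 15 tested gland and supporting cell genes were higher and 0 lower (7 and 1 without the P16 mature neuron library). Ltf, lactoferrin, had a log2 fold of 1.93 (SE 0.37), Aqp4, a water channel, of 1.27 (SE 0.35) and Gstm2, a glutathione transferase, of 0.69 (SE 0.19). The summed level of that list was 5321, 4755 and 2957 TPM in the P2, P7 and P16 mature neurons and 2170 to 4195 TPM in progenitors. The part of gland cells in the Sox10 values was not tested. Of 9 tested microvillous cell genes, a cell type known to make Npy, 1 was higher (Pou2f3, log2 fold 1.13) and 2 lower (Coch, -1.86, and Itpr3, -0.71), with 2 higher and 2 lower without the P16 mature neuron library. Their list summed to 29.3 to 54.9 TPM in mature neurons and 73.8 to 115 TPM in progenitors, and its part in the Npy values was not tested.

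The genes most like each member across the 7 libraries were found by Pearson r of log2(CPM + 1) among about 12850 genes. The libraries fall into 2 populations, so r can follow the difference between these. It can also follow a single high library, as with Apoe at 142 CPM in the P16 mature neurons and 16.2 to 34.5 CPM elsewhere. It is given as a description. For Npy the 3 nearest genes were Tgm4 (r = 0.99), Gcnt2 (0.98) and Fabp7 (0.98). For Fabp7 they were Tgm4, Hist2h3c2 and Armc3 (all 0.99), and for Sox10 Fam193b, Dusp11 and Taz (all 0.99). S100b was nearest to Spice1, Ppp2r5b and C1qc, a complement subunit of macrophages (all 0.99). Apoe was nearest to Ddx5 (0.998), Ppp1r37 (0.99) and Mtmr12 (0.98), and Frzb to Gas2l1 (0.99), Scml4 (0.98) and Ankfy1 (0.97). For Mbp they were B3galnt2 (0.9997), Fdxacb1 (0.9991) and Shisa4 (0.9990), and 2036 genes had an r over 0.95 with Mbp, against 15 with Frzb.

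After subtraction of the population means some pairs of members kept closer together than others. The r of these deviations over 7 libraries was 0.96 for Fabp7 with Npy, 0.97 for S100b with Apoe, 0.93 for Sox10 with S100b and 0.93 for Sox10 with Apoe. It was 0.51 for Sox10 with Npy and 0.58 for Sox10 with Fabp7. Mbp ran opposite to Fabp7 (-0.96) and to Npy (-0.96). These values rest on few libraries that share depth and age, and no test was made of them.

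For Fabp7, Npy and Apoe the 250 bases upstream of a RefSeq start (GRCm38.p6) are shown, 5′ to 3′ on the gene's strand. Any bearing of these bases on the levels was not tested. Capitals mark SOX-type heptamers on either strand, which are CAAAG or CAATG preceded by a pair of bases that are each adenine or thymine.
Fabp7, chr10:57784673-57784922, plus strand: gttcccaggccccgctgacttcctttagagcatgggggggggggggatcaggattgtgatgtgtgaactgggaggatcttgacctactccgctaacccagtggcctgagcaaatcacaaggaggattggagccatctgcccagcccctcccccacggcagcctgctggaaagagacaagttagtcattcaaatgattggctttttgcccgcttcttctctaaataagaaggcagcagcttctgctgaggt
Npy, chr6:49822460-49822709, plus strand: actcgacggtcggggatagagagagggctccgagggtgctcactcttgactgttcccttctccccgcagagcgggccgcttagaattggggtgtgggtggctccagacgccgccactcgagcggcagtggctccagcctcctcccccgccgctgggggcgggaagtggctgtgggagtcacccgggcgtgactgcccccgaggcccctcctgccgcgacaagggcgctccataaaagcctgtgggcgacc
Apoe, chr7:19699189-19699438, minus strand: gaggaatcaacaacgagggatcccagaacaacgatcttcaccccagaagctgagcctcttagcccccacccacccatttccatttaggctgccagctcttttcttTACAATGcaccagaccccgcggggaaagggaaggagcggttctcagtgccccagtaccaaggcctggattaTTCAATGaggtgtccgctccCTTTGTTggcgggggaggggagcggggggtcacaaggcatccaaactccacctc

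The Apoe window held 3 heptamers that do not overlap. The first is TACAATG at -145 from the start, the next is TTCAATG at -74, and the last reads as AACAAAG on the opposite strand, with its first base on the gene's strand at -54. The windows of Fabp7 and Npy held none, nor did those of S100b and Frzb, nor those of 2 further Apoe starts. The starts of S100b and Frzb and 1 of these Apoe starts are not GENCODE starts. Upstream sequence was taken for 5 of 7 members. None was found for Sox10, and Mbp, on chromosome 18, was left out by choice. Of 32851 promoter windows of the same length, 21.8% held at least 1 such heptamer. A match here is a string of letters and not a shown binding site, and its absence from these windows says nothing of Sox10 acting elsewhere.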

How the data were processed

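Tools named in the submitters' processing notes, without role or order, are STAR 2.6.1c, RSEM and bcl2fastq, and the build is mm10. The authors deposited whole-number read counts per gene and TPM, scaled to 1 fixed total in each library. Annotation and strand setting: not given in the sources used here. None of the 7 members shares exon sequence with another gene in GENCODE M21 (GRCm38). Between 23.53% and 27.22% of each library's total named no gene and was left out.

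Counts were tested with edgeR 4.0.16 (quasi-likelihood, TMM, filterByExpr, Benjamini-Hochberg at 0.05 over all genes tested), for population, for log2 postnatal day beside population, and for their interaction, with 5, 4 and 3 residual degrees of freedom. CPM uses TMM library sizes, and levels are compared between genes in TPM only. Standard errors come from the fold and its F statistic. The fits were tested on simulated data. Alternatives used DESeq2 1.42.0 and limma 3.58.1 on log2(TPM + 1) and log2(TPM + 0.1), other settings and each library left out. The members and the 12 other gene lists were chosen with earlier results of these data known. Named genes are the members, up to 3 called genes per list and direction with the smallest p, and the 3 genes most like each member with a mean of at least 1 CPM, without olfactory receptors, Gm, Rik and -ps genes; others are said to be chosen later, apart from the fixed cell type markers and list members given as values. Promoter sequences are RefSeq's (GRCm38.p6). Some members of these lists are counted but not reported here by name.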

Additional observations from a re-analysis of the deposited data

Results flagged for a closer look

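In progenitors, the summed CPM of the 10 neural crest and Sox regulators was 43.24 in the P9 library and 35.43 to 36.74 in the other 3, a gap of 0.832 of the whole range, above Dixon's 95% critical value for 4 samples. It was the only 1 of 20 such sums and genes to stand apart in this way, and chance gives about 1 in 20. Egr2 and Mitf, named after their values were seen, made up most of the P9 sum, at 19.4 and 18.9 CPM. The next largest was Sox9, at 2.52 CPM. The list had 0 called genes between the populations.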

How the results depend on the processing

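Fabp7 and Mbp kept their direction and their call under all 14 alternatives of the population comparison. The number of members called higher was 4 with all libraries, 2 by limma on log2(TPM + 1) and 2 on log2(TPM + 0.1), and 1 to 6 when 1 library was left out; Mbp was the 1 member called lower throughout. By limma on log2(TPM + 1) the calls on Sox10 (0.34) and S100b (0.66) were lost, and on log2(TPM + 0.1) those on Sox10 (0.84) and Npy (2.09). These scales moved the median log2 fold of the 7 members from 1.38 to 0.66 and 0.85, the median log2 fold of all genes from 0.01 to -0.09 and -0.12, and the share of called genes that were higher in mature neurons from 49.0% to 39.1% and 38.9%. With log2 postnatal day as a covariate Frzb (0.91) and Apoe (1.20) were called higher. Restricted to P7 and P16, with age as a replicate block, Frzb (1.39) and Apoe (1.21) were called and Sox10 (1.13) was not; the block changed no other call on a member, and the labels pair libraries by age only. With 1 library left out the log2 folds ran from 0.68 to 1.52 for Sox10, 0.95 to 2.14 for S100b, 0.27 to 1.40 for Frzb, 1.61 to 2.60 for Npy and -0.00496 to 1.81 for Apoe. A linear age scale called 438 genes with a positive and 686 with a negative slope in place of 0 and 0, and leaving out 1 library 0 to 367 and 0 to 619. For the difference of slopes, leaving out 1 library called 0 to 1 genes with a positive and 0 to 2 with a negative value. There S100b was 0.0011 on a linear age scale, and with 1 library left out the values ran from -0.84 to 0.71 for S100b, -0.25 to 0.87 for Sox10, -0.17 to 1.51 for Apoe, -0.90 to 0.0794 for Fabp7 and -2.25 to 0.0838 for Npy, none of them called. The cause of these changes was not tested. Counts of 2 to 89 per library limit what can be seen of Npy, S100b and Sox10.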

Other observations

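S100a8 and S100a9, calcium-binding proteins of neutrophils in the S100 list, were named after their values were seen. S100a8 had 851 counts in the P16 mature neurons and 98 in the P16 progenitors, against 4 to 23 in the other 5 libraries. S100a9 had 1295 and 145 counts in the same 2 libraries, against 7 to 46 in the others. Neither was called between the populations (edgeR adjusted p = 0.0884 and 0.0889).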
